A study of Homo sapiens with 5 samples.

Results

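The ribosome biogenesis factors described here are nucleolar proteins that make and assemble ribosomes without being part of the finished particle. They were chosen by gene symbol from a list of 40, and 37 of the 40 were measured by a probe naming that gene alone, of 18417 genes tested in all. NOP56 and PPAN were matched only to probes that also name other genes, GNL3 was not matched to a probe, and these 3 genes were not analysed here. The cells were labelled RS4;11, a human leukemia line whose MLL gene, for a chromatin regulator, is known to be fused to another gene. On 3 arrays the cells had been given 10 uM SB216763, which blocks the ATP site of the kinase GSK-3, for 20 h, and on 2 arrays the solvent DMSO alone (control) for the same time. Both groups were the same line, and the labels do not say whether the arrays hold separate cultures. The p-values therefore speak to the spread between these 5 arrays, some or all of which may be technical.

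Ribosome production starts in the nucleolus, where RNA polymerase I transcribes a long rRNA precursor. Small nucleolar RNA particles modify this precursor, the box C/D particles by methylation and the box H/ACA particles by pseudouridylation, while helicases, scaffolds and nucleases fold and cut it into the RNAs of the small and the large subunit. The rate of this work is tied to growth, and the transcription factor MYC, which with its partner MAX binds the DNA motif called the E-box, is known to drive many of the genes.

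The promoters of 6 factors are shown first because they carry the motif near the transcription start, except NIP7, shown as a factor that fell without it. They are examples picked without a set rule. Of the 15 factors found to hold the motif 8 fell, as did 6 of the 15 without it. Each run covers 105 bases around the transcription start as annotated by RefSeq on GRCh38.p14, read in the gene's direction, and capitals mark the E-box CACGTG, which reads the same on both strands. The runs lie at chr1:19251725-19251829 (plus strand), chr3:51941880-51941984 (minus strand), chr4:4290007-4290111 (minus strand), chr22:30591886-30591990 (minus strand), chr19:39846355-39846459 (minus strand) and chr16:69339692-69339796 (plus strand), in the order printed.
MRTO4: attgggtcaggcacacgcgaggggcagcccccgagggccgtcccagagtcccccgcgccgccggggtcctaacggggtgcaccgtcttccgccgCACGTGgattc
RRP9: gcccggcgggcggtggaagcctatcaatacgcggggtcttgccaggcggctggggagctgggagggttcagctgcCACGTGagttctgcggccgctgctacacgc
LYAR: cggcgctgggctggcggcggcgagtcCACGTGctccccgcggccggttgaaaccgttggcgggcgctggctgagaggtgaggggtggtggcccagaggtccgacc
PES1: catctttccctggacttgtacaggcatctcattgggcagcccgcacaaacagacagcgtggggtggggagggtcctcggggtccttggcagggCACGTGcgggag
FBL: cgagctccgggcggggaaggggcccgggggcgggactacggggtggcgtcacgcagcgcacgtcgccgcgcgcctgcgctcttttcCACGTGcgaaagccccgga
NIP7: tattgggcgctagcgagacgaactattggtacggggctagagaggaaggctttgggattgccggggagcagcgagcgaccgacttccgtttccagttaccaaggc
The first base of the motif is base 15 of the transcript in MRTO4, base 14 in PES1 and base 7 in FBL, and lies 5 bases before the start in RRP9 and 64 before it at 1 of the 2 annotated starts of LYAR. NIP7 has no such match from 250 bases before the start to 50 after it. MRTO4, RRP9, LYAR, PES1 and NIP7 were lower with SB216763, whereas FBL did not pass the test.

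Across the whole set, 18 of the 37 factors fell, 0 rose and 19 did not pass, by limma with Benjamini-Hochberg adjustment over all genes at a threshold of 0.05. That is 48.6% of the factors, where 5.92% of all genes tested were called lower and 7.21% higher. The set, and the lists set beside it below, were chosen with earlier results of these data known. The shares make no allowance for that choice. At an unadjusted p under 0.05, 27 factors were lower and 0 higher, where 2254 of all genes (12.2%) were lower and 2626 higher. Differences are given on the log2 scale as SB216763 minus control. Their median over the 37 factors was -0.35, beside 0.0033 over all genes, and 36 of the 37 were below 0, the exception being NPM1. On all 3 SB216763 arrays 33 factors (89.2%) lay below both control arrays, as did 19.9% of all genes. MRTO4 fell 2.13-fold, and the other 17 that fell did so by 1.26-fold (NOP14) to 1.66-fold (RRP12).

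**Figure D1:**
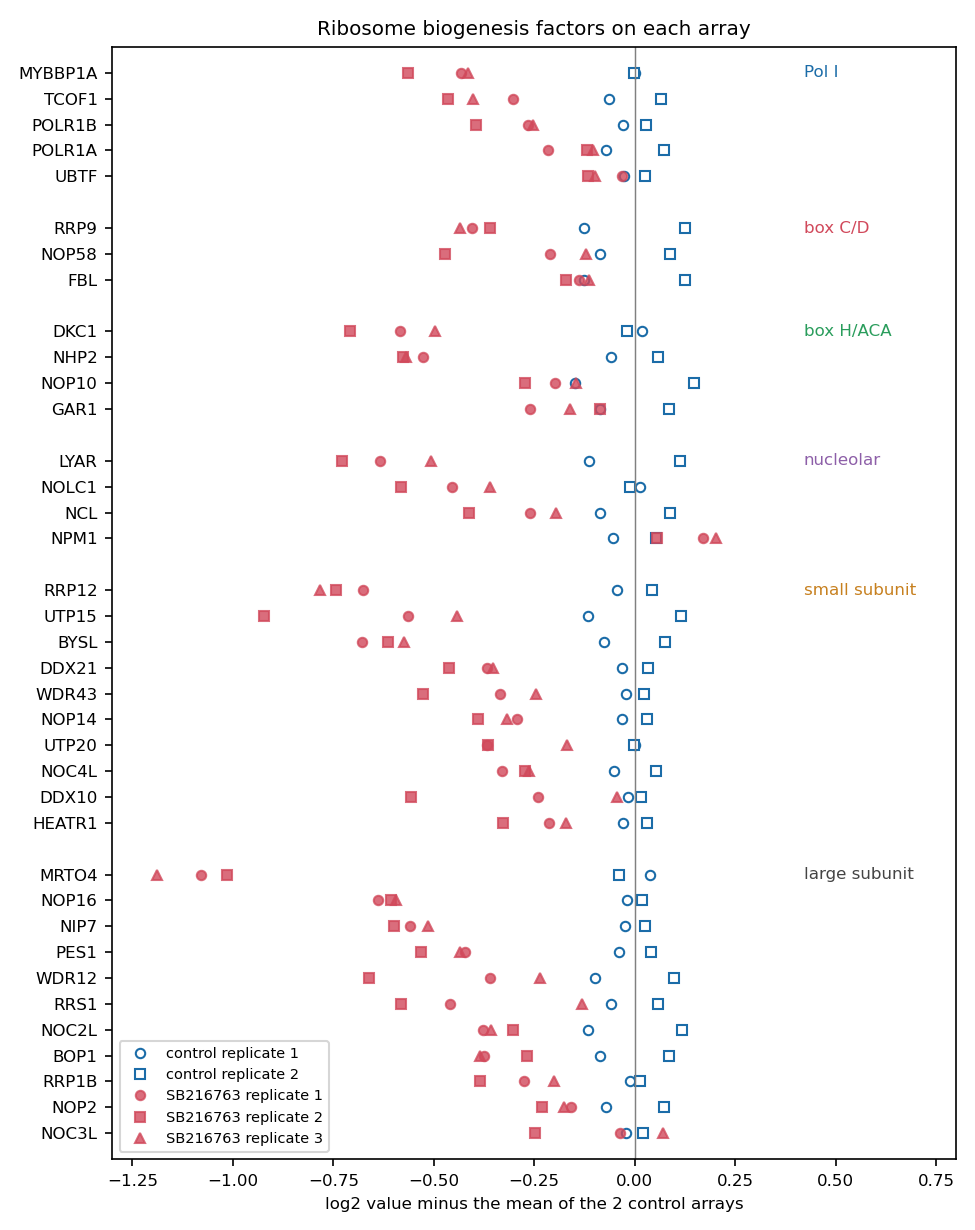
Log2 value of each of the 37 factors on each of the 5 arrays, minus the mean of the 2 control arrays of that gene, grouped by role. Filled red points are SB216763 arrays and open blue points are control arrays; the red points lie left of both blue points for 33 factors, and SB216763 replicate 2 is the lowest of the 3 for 26.

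The median of the factors relative to their control means was -0.36, -0.46 and -0.26 on SB216763 replicates 1, 2 and 3. SB216763 replicate 2 was the lowest of the 3 arrays for 26 of the 37 factors and replicate 3 the highest for 25, and control replicate 2 was the higher control for 32. With either control array removed, limma called 0 factors: 27 were still lower by unadjusted p under 0.05 in the absence of control replicate 1, and 19 in the absence of control replicate 2, where the counts over all 18417 genes were 1902 and 1654. Without SB216763 replicate 1 the number of factors that fell was 10, where 453 of the 18417 genes were called lower. With each array removed in turn, the median difference ran from -0.43 to -0.30.

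MYC itself, no member of the set, stood at 10.75 and 10.86 on the control arrays and at 9.74, 9.72 and 9.80 on the SB216763 arrays. It fell by 1.05 (SE 0.08, adjusted p = 0.000588 by limma), on the same arrays as the factors, and its part in their levels was not tested.

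Of the 5 genes of RNA polymerase I transcription, MYBBP1A and TCOF1 fell and POLR1A, POLR1B and UBTF did not pass. MYBBP1A, a nucleolar protein that binds the polymerase and the rRNA processing machinery, had log2 values of 10.07 and 10.06 on the control arrays and 9.63, 9.50 and 9.65 on the SB216763 arrays. The 3 treated arrays were well apart from the nearly equal controls, and the gene fell by 0.47 (SE 0.08, adjusted p = 0.0107). TCOF1, which encodes treacle, the scaffold of the nucleolar transcription centre, fell from 8.94 and 9.07 to 8.70, 8.54 and 8.60, by 0.39 (SE 0.09, adjusted p = 0.0269). UBTF, which opens the rDNA chromatin for the polymerase, was at 10.24 and 10.29 in control and at 10.23, 10.15 and 10.16 with SB216763. Its 3 treated values were the lowest, but the nearest arrays of the groups were 0.0047 apart, and the difference of -0.08 (95% interval -0.26 to 0.10) did not pass, and was -0.04 with array weights. The catalytic subunits differed by -0.15 for POLR1A and -0.30 for POLR1B, with adjusted p-values of 0.340 and 0.0517, and POLR1A by -0.07 without control replicate 2. POLR1B passed under 5 alternative settings (adjusted p from 0.0179 to 0.0355).

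Of the 3 measured box C/D proteins 1 fell. RRP9, the protein that marks the U3 particle of early small-subunit processing, was at 9.28 and 9.53 in control and at 9.002, 9.05 and 8.97 with SB216763. The groups did not overlap although the controls lay far apart, and the gene fell by 0.40 (SE 0.10, adjusted p = 0.0326). FBL, fibrillarin, the methyltransferase of every box C/D particle, was at 11.45 and 11.71 in control and at 11.44, 11.41 and 11.47 with SB216763. These groups overlap, since SB216763 replicate 3 lay above control replicate 1, and the difference of -0.14 (95% interval -0.36 to 0.08) did not pass; it was -0.27 without control replicate 1 and -0.015 without control replicate 2. NOP58, part of the core of the same particles, differed by -0.27 (SE 0.12, adjusted p = 0.205), or -0.17 without SB216763 replicate 2.

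The 4 box H/ACA proteins divided evenly into 2 that fell and 2 that did not pass, although all of them sit in the same particle. DKC1, dyskerin, the pseudouridine synthase, was at 10.22 and 10.18 in control and at 9.62, 9.49 and 9.71 with SB216763. NHP2, which joins dyskerin in the core of the particle, went from 9.72 and 9.83 to 9.25, 9.20 and 9.21. In both genes every treated array lay clearly below both controls, and they fell by 0.60 (SE 0.09, adjusted p = 0.00587) and by 0.56 (SE 0.08, adjusted p = 0.00482). GAR1, the particle's glycine- and arginine-rich subunit, was at 8.43 and 8.61 in control and at 8.26, 8.43 and 8.36 with SB216763, a difference of -0.17 (95% interval -0.39 to 0.05). GAR1 passed in 1 of the other settings, array weights. NOP10, the smallest subunit, overlapped between groups and differed by -0.21 (95% interval -0.45 to 0.04). Without control replicate 1 these values were -0.26 for GAR1 and -0.35 for NOP10, and without control replicate 2 they were -0.08 and -0.06. Whether DKC1 and NHP2 differ from GAR1 and NOP10 in response was not tested. The second probe of NHP2 had a difference of -0.66.

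Among the nucleolar chaperones and scaffolds LYAR and NOLC1 fell and NCL and NPM1 did not pass. LYAR, a nucleolar zinc finger protein of proliferating cells, was at 8.95 and 9.17 in control and at 8.43, 8.33 and 8.55 with SB216763, with no overlap. It fell by 0.62 (SE 0.10, adjusted p = 0.00891). NOLC1, which escorts small nucleolar particles, fell from 10.44 and 10.41 to 9.97, 9.84 and 10.07, by 0.47 (SE 0.09, adjusted p = 0.0154). NCL, nucleolin, an abundant RNA-binding protein of the nucleolus, differed by -0.29 (adjusted p = 0.102) and passed in 3 of the other settings. NPM1, nucleophosmin, was the 1 factor with a value above 0: it stood at 12.68 and 12.79 in control and at 12.91, 12.79 and 12.94 with SB216763. All 3 treated values were above both controls, SB216763 replicate 2 by a margin of 0.0013, and the difference of 0.14 (95% interval -0.06 to 0.34, adjusted p = 0.353) did not pass. It was 0.02 after quantile normalization and 0.09 without control replicate 1. NPM1 was named by 4 probes, of which 3 bright ones differed by 0.13, 0.13 and 0.14, and 1, near 6.4 on every array, by -0.03. NPM1 has near-identical processed copies in the genome, so which copies the bright probes measure is uncertain.

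**Figure D2:**
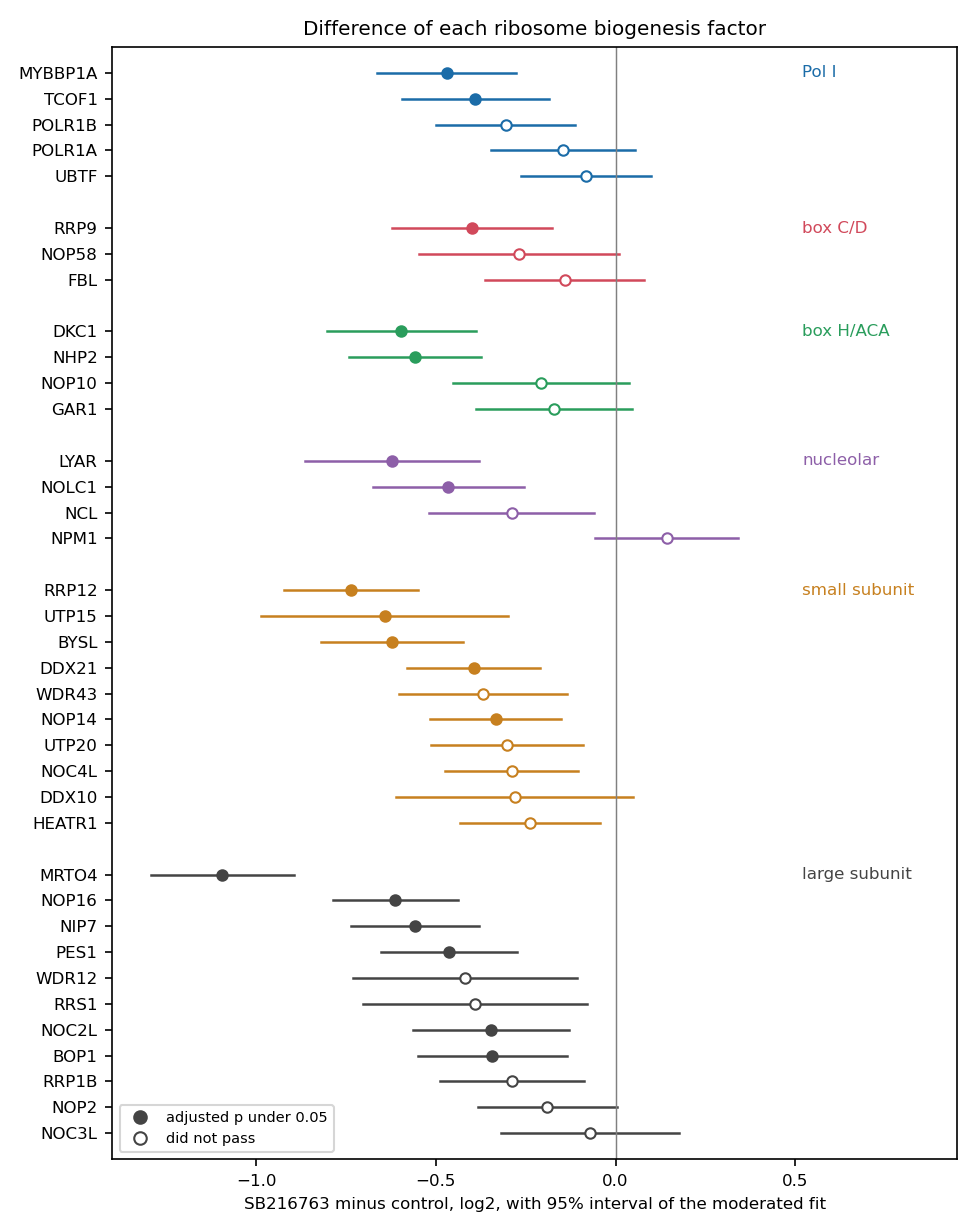
Difference of each of the 37 factors between SB216763 and control on the log2 scale, with the 95% interval of the moderated fit, grouped by role and ordered by size. Filled points passed the adjusted threshold: 18 of 37, all below 0, and NPM1 is the 1 point above 0.

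Of the 10 factors of the small subunit 5 fell, where 5.92% of all genes tested were called lower. All 10 lay below both controls on all treated arrays, as did 19.9% of all genes. RRP12, which accompanies small-subunit precursors out of the nucleus, was at 9.33 and 9.42 in control and at 8.70, 8.63 and 8.59 with SB216763. UTP15, of the complex that first loads onto the growing rRNA precursor, was at 8.66 and 8.89 in control and at 8.22, 7.86 and 8.34 with SB216763. RRP12 was tight within each group, while the treated arrays of UTP15 spread over much of the difference. They fell by 0.73 (SE 0.08, adjusted p = 0.00200) and by 0.64 (SE 0.15, adjusted p = 0.0287). BYSL, bystin, a late small-subunit factor, went from 9.68 and 9.83 to 9.07, 9.14 and 9.18, and fell by 0.62 (SE 0.09, adjusted p = 0.00432). DDX21, a helicase that links rRNA transcription with processing, fell by 0.39 (SE 0.08), and NOP14 by 0.33 (SE 0.08).

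Several partners of these proteins missed the threshold. NOC4L, which binds NOP14, differed by -0.29 (adjusted p = 0.0525). WDR43, a partner of UTP15 in its complex, differed by -0.37 (adjusted p = 0.0508). UTP20, a large scaffold, differed by -0.30 (adjusted p = 0.0714), and each of these 3 passed in at least 5 of the other settings. HEATR1, another partner of UTP15, had the smallest difference of the 10, with 10.44 and 10.50 in control and 10.26, 10.14 and 10.30 with SB216763. The groups did not overlap, and the difference was -0.24 (95% interval -0.43 to -0.04, adjusted p = 0.114). HEATR1 passed in 2 of the other settings. DDX10, a nucleolar helicase, differed by -0.28 with the treated arrays from 8.62 to 9.13, or by -0.14 without SB216763 replicate 2.

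The large subunit held the greatest decrease of the set, and 6 of its 11 measured factors fell, where 5.92% of all genes tested were called lower. MRTO4, which keeps the place of the stalk protein on the immature subunit, was at 10.04 and 9.96 in control and at 8.92, 8.99 and 8.81 with SB216763. The nearest arrays of the groups were 0.98 apart, the widest gap of the 37 factors, and the gene fell by 1.09 (SE 0.09, adjusted p = 0.000601). NOP16, a nucleolar protein of the immature large subunit, was at 8.81 and 8.84 in control and at 8.19, 8.22 and 8.23 with SB216763. NIP7, which acts in processing of the precursor, was at 10.53 and 10.58 in control and at 9.99, 9.95 and 10.04 with SB216763. Both were tight in each group and fell by 0.61 (SE 0.07, adjusted p = 0.00279) and 0.56 (SE 0.08, adjusted p = 0.00437). MRTO4, NOP16 and NIP7 were also the 3 factors called by an ordinary linear model without moderation.

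PES1, BOP1 and WDR12 form the PeBoW complex, which is needed to mature the large-subunit RNAs. PES1 fell by 0.46 (SE 0.08, adjusted p = 0.0104), from 9.57 and 9.65 to 9.19, 9.08 and 9.18. BOP1 fell by 0.34 (SE 0.09, adjusted p = 0.0436), and its second probe differed by -0.41. WDR12 differed by -0.42, a value between them on average, but its treated arrays ranged from 9.75 to 10.18, and it did not pass (SE 0.13, adjusted p = 0.0843). WDR12 passed in 5 of the other settings. NOC2L, of a complex that carries the immature subunit, fell by 0.35 (SE 0.09, adjusted p = 0.0496), with a difference of -0.23 without control replicate 2, while its partner NOC3L had the smallest difference of the large-subunit factors. NOC3L was at 9.12 and 9.16 in control and at 9.10, 8.89 and 9.21 with SB216763, so the groups overlap. Its difference was -0.07 (95% interval -0.32 to 0.18), or 0.02 without SB216763 replicate 2 and -0.14 without SB216763 replicate 3. Of the others, the assembly factor RRS1 differed by -0.39, RRP1B by -0.29 and the rRNA methyltransferase NOP2 by -0.19, with adjusted p-values of 0.105, 0.0682 and 0.195. In the other settings RRP1B passed in 5 and RRS1 in 3. NOP2 differed by -0.12 without control replicate 2.

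BOP1, NOC2L, NOP14, RRP9 and TCOF1 each lost their call in 7 or 8 of the 14 other settings, including without SB216763 replicate 1, without SB216763 replicate 3 and with every probe tested singly. MRTO4, NOP16 and NIP7 lost theirs in 2, namely without control replicate 1 and without control replicate 2.

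The wider pathway was read from a further 113 measured factors that are not in the set: other subunits and initiation factors of RNA polymerase I, other factors of the small and the large subunit, and the RNA exosome. Of these 19 fell (16.8%) and 3 rose (2.65%), where 5.92% of all genes tested were called lower and 7.21% higher. The other 91 did not pass, and the median of the 113 was -0.16. The small-subunit factors fell in 7 of 42, the large-subunit factors in 6 of 46 with 1 higher, the exosome in 4 of 13, and RNA polymerase I genes in 2 of 12 with 2 higher. EXOSC5, of the exosome ring, fell from 10.54 and 10.66 to 9.67, 9.79 and 9.78, by 0.86 (SE 0.08, adjusted p = 0.00133), and EXOSC4 by 0.53 (SE 0.09). NOL6 and RRP7A, which act together on the small subunit, fell by 0.67 (SE 0.08) and 0.59 (SE 0.09), and LAS1L, of the nuclease that cuts a spacer between the large-subunit RNAs, by 0.56 (SE 0.09). The 3 that rose were NOP53, a large-subunit factor that docks the exosome, by 0.56 (SE 0.08), POLR1D, a subunit shared by RNA polymerases I and III, by 0.59 (SE 0.09), and TAF1D, of the polymerase I initiation complex, by 0.62 (SE 0.10). With control replicate 1 or 2 removed, limma called 0 of the 113 (33 and 26 lower by unadjusted p under 0.05), and with SB216763 replicate 1 removed 7 fell.

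The proteins of the ribosome itself were set beside the factors that build it. Of 59 measured cytosolic ribosomal protein genes 22 rose, 0 fell and 37 did not pass by limma; their median was 0.25, and 37 were higher and 1 lower by unadjusted p under 0.05. The median of this list stayed above 0 on every scaling, at 0.20 after quantile normalization and 0.22 with each array centred. Ribosomal protein genes have many processed copies, which these probes may also measure. Of 70 mitochondrial ribosomal protein genes 9 fell, 0 rose and 61 did not pass by limma; their median was -0.07, and 23 were lower and 4 higher by unadjusted p under 0.05. The difference between these lists and the biogenesis factors was not tested. Without control replicate 1 the median was 0.24 over the cytosolic genes and -0.13 over the mitochondrial ones. Without control replicate 2 these medians were 0.33 and -0.08. Either fit leaves 1 control array. With SB216763 replicate 1 removed 8 cytosolic genes rose, as did 540 of all genes, and 1 mitochondrial gene fell, as did 453 of all genes. The number of cytosolic genes that rose was 3 without moderation, 14 with single probes, 34 with a variance trend and 35 with array weights. Over all genes the counts higher were 126, 1162 (of 33297 single probes), 1688 and 2568 in the same order. The number of mitochondrial genes that fell was 0 without moderation, 1 with single probes, 4 without SB216763 replicate 3, 5 with the replicate block, 14 with a variance trend and 18 with array weights. Over all genes the counts lower were 125, 745, 798, 889, 1439 and 2152 in the same order. Mitochondrial genes also rose in some settings: 2 with a filter on dim genes, 2 with a variance trend and 4 with array weights. A further 1 rose with quantile normalization and 1 without SB216763 replicate 2.

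**Figure D3:**
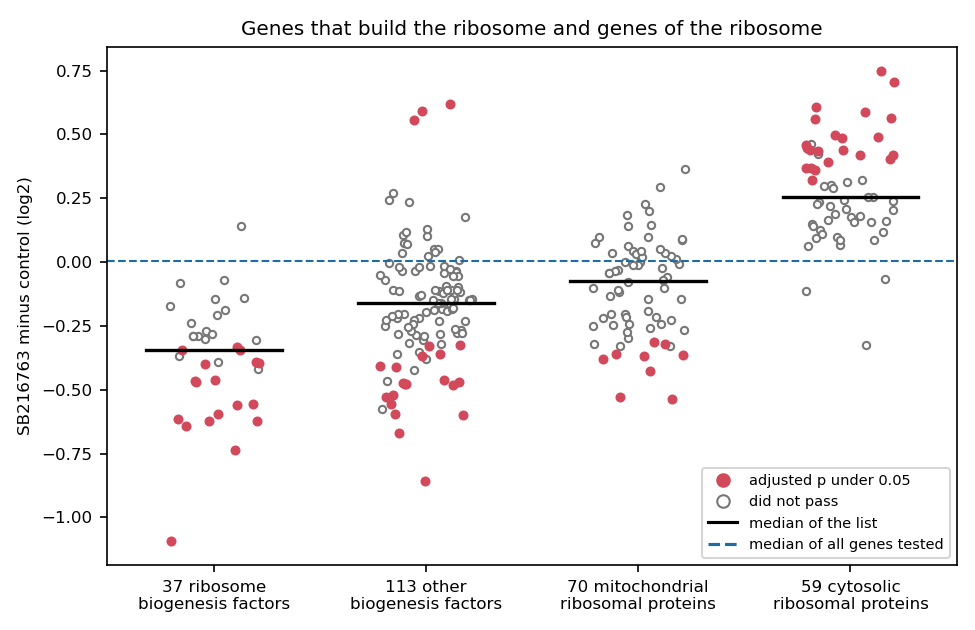
Differences between SB216763 and control on the log2 scale for the 37 ribosome biogenesis factors, 113 other biogenesis factors, 70 mitochondrial and 59 cytosolic ribosomal protein genes, each point a gene and each black line a median. The medians are -0.35, -0.16, -0.07 and 0.25, and red points passed the adjusted threshold.

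The promoters of the factors were then searched for the E-box CACGTG, from 250 bases before to 50 after each RefSeq start. Of the 37 factors 30 had a promoter in the table, and 15 of the 30 (50%) held the motif, as did 10.9% of the 14239 tested genes with a promoter. Counted over promoters rather than genes, it was present in 15 of 36 promoters of the factors, or 41.7%. The share was 8.32% over promoters of tested genes and 7.26% over all 35116 promoters of the same length. The median content of G and C bases was 64.5% for the factors, 62.7% for tested genes and 58.7% for all promoters. Its part in the motif counts was not tested. The motif was present in 28.7% of the other biogenesis factors, 12.7% of the mitochondrial ribosomal protein genes and 3 of 50 cytosolic ones. Members of the set matched at 16 places, and 15 of them began no further than 100 bases before the start, a distance set after the positions were seen. Over all tested genes 1103 of 1877 matches (58.8%) began in that stretch.

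The 15 factors with the motif had differences from -1.09 to -0.07 with a median of -0.37, and 8 of them fell. The 15 without it had differences from -0.64 to 0.14 with a median of -0.30, and 6 of them fell. The ranges overlap over most of their length. MRTO4, BYSL, LYAR, MYBBP1A and PES1 had the motif and fell by 0.46 or more, while NOC3L, FBL, GAR1 and NOP2 had it and did not pass. UTP15, NOP16, DKC1, NHP2 and NIP7 fell by 0.56 or more without a match in this window. A match describes these letters alone, and binding was not measured.

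**Figure D4:**
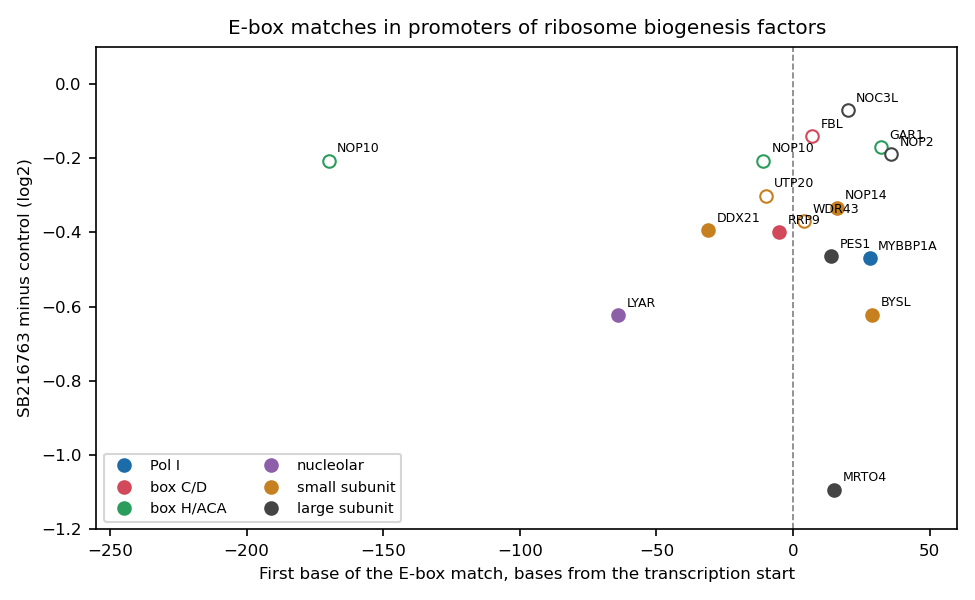
Position of each E-box match in promoters of the factors, in bases from the RefSeq transcription start (dashed line), against the gene's difference between SB216763 and control on the log2 scale. Colours give the role, filled points fell and open points did not pass; 15 of the 16 matches lie within 100 bases of the start, and NOP10 has the 1 match further upstream.

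All 37 factors were above background on all 5 arrays, background being the 95th percentile of olfactory receptor genes, from 5.98 to 6.19. The 5 arrays had median log2 values from 6.77 to 6.84, and pairs of arrays correlated across probes with a Pearson r from 0.989 to 0.996. Of 10 measured markers of B cell precursors, the lineage usually given for this line, 3 were above background on all arrays (CD79B, PAX5 and TCF3) and 5 on none (CD22, VPREB1, RAG1, DNTT and CD24). Of the 10 markers 1, the adaptor BLNK, was called higher and 0 lower (adjusted p = 0.000585 by limma), with 5.53 and 5.47 in control, below background, and 6.68 to 6.93 with SB216763. In control the median level over the B cell precursor markers was 5.63, below background, and over the myeloid markers listed next it was 9.19. By level the markers thus go with the myeloid list more than with the lineage usually given. Cell identity was not tested here. Of 14 myeloid markers all 14 were above background on all arrays. Of these 4 rose (CSF3R, CD68, LYZ and TYROBP) and 0 fell, where 7.21% of all genes tested were called higher and 5.92% lower. By unadjusted limma p under 0.05, 7 were higher and 1 lower, where 2626 of the 18417 genes were higher and 2254 lower. Of the 14, 6 had differences below 0, among them the granule genes PRTN3 at -0.28, MPO at -0.23 and AZU1 at -0.20. The summed level of the list was 14.07 and 14.08 on the control arrays and 14.49 to 14.53 on the SB216763 arrays (log2). Of 9 T cell and 5 erythroid markers 3 and 2 were above background on all arrays and 0 were called by limma (0 by unadjusted p under 0.05). The part of the myeloid markers in the levels of the biogenesis factors was not tested.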

How the data were processed

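RNA was measured on 5 Affymetrix whole-transcript arrays. The authors deposited 1 table of log2 expression values, made with Affymetrix Expression Console per the submitters' processing notes. That the values are log2 follows from their range, 1.95 to 14.84. Not given in the sources used here are the summarisation method, its centring and the genome build. No further normalization was applied.

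Of 33297 probes 19460 named exactly 1 gene symbol in the platform annotation, and each gene was represented by its brightest probe on average over the 5 arrays, giving 18417 genes. SB216763 and control were compared by limma 3.58.1 (lmFit and eBayes, two-sided, R 4.3.3); p-values were adjusted by Benjamini-Hochberg across all genes, 0.05 was the threshold, and SE and 95% intervals come from the moderated fit. The procedure was tested on simulated data. The number of arrays limits the precision. Promoters were matched by symbol to a RefSeq table of GRCh38.p14. The members, role lists, comparison lists and tests were chosen with earlier results of these data known. In each role list, array values are given for the 2 called members with the largest difference and the member with the smallest, and for a few others named after their values were seen. Of the other biogenesis factors, the 2 with the smallest p in each of 4 lists were named, with MYC; where few were called, others were named. Also tried were a dim-gene filter, quantile normalization, median centring, averaged probes, 3 variance or weight settings, the replicate block, each array left out and single probes. Python 3.11.15, pandas 2.3.3 and matplotlib 3.10.9 made the tables and figures.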

Additional observations from a re-analysis of the deposited data

How the results depend on the processing

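By limma 18 of the biogenesis factors fell, with 1090 of all genes. A filter on dim genes, quantile normalization, median centring, averaged probes, a variance trend, the replicate block and single probes were each tried. In those settings 745 to 1537 of all genes were called lower, the 745 being of 33297 single probes. The number of biogenesis factors that fell was then between 12 and 26. It was 3 without moderation and 28 with array weights, and from 0 to 17 with each array left out. Of the other biogenesis factors 32 fell with the filter on dim genes, 31 with a variance trend, 2 without moderation, 35 with array weights, 10 with single probes, and 0 to 19 with each array left out; those that rose were 0 without moderation, 5 with array weights and 0 to 3 with each array left out. Over all genes the counts lower and higher were 125 and 126 without moderation and 2152 and 2568 with array weights, and ran from 0 to 1179 and from 0 to 1680 with each array left out. Leaving out a control array leaves 1, whose spread is then taken from the treated arrays. The factors' median difference stayed between -0.43 and -0.30 in all settings. Of the 37 factors, MYC and the 8 other biogenesis factors named by rule, NOC3L alone changed sign, running from -0.14 without SB216763 replicate 3 to 0.017 without SB216763 replicate 2. With the replicate number as a block 16 factors and 889 of all genes fell. Of the 18 factors 5 lost their call, and 3 others gained it. In this fit SB216763 replicate 3 has no control of its number and adds nothing to the difference. The labels do not say whether arrays of the same number were paired. Deviations of control and SB216763 arrays correlated at -0.05 for replicate 1 and -0.10 for replicate 2. With 2 control arrays the deviations of 1 mirror those of the other, so these correlations cannot decide whether arrays were paired.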
